A study of Mus musculus with 6 samples.

Results

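The endothelium of the spleen was examined through 10 genes in RNA-seq counts from spleens of 3 NOD.B10 and 3 BL/10 mice. The genes were *Pecam1*, *Cdh5*, *Kdr*, *Tek*, *Stab1*, *Stab2*, *Flt4*, *Cd34*, *Eng* and *Plvap*, chosen by symbol from a list of endothelial and sinus genes, out of 47729 genes counted. All 10 were read in every library, and all passed the filter on low counts that left 15330 genes for testing. NOD.B10 (NOD.B10Sn-H2b/J) is a strain used to model primary Sjögren's syndrome (pSS) in mice, derived from NOD, that carries the *H2b* haplotype, and BL/10 (C57BL/10SnJ) was the healthy control strain. All mice were females, RNA was taken from whole spleen, and the 3 libraries of a strain are biological replicates. The comparison addressed how the transcriptome of the spleen differs between mice with clinical disease and controls.

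The labels of the libraries contradict each other. The strain was taken here from the sample descriptions and the matching column names, whereas the titles and strain fields give the other strain for all 6 libraries, so every direction below is reversed if the titles are right. The labels give an age of 36 weeks for BL/10 replicates 2 and 3 and of 26 weeks for the other 4 libraries. Age and strain are thus partly confounded, although the protocol describes all mice as age-matched at 26 weeks. With age as a covariate, the strain term rests on BL/10 replicate 1 as the only BL/10 library of 26 weeks. Calls kept or lost in that fit are therefore not read as an effect of age. The total counts were between 15662712 and 18298451 per library. BL/10 replicate 1 had 13232 CPM (read counts per megaread of library size, with the size adjusted by TMM factors of edgeR) of 13 pancreas acinar genes and BL/10 replicate 2 had 2060 CPM, against 110 CPM in BL/10 replicate 3 and 22.4 to 31.1 CPM in NOD.B10. BL/10 replicate 3 had 258 CPM of 8 adipocyte genes and 130 CPM of 6 mesothelial genes, against 39.3 to 79.9 CPM and 37.8 to 63.5 CPM in the other libraries. The part of these tissues in the values below was not tested.

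The sinuses of the splenic red pulp are lined by endothelial cells that also take up material from blood. Endothelial cells hold to each other through VE-cadherin and PECAM-1. They receive VEGF and angiopoietin signals through receptor tyrosine kinases, and cells of sinusoidal type carry the scavenger receptors stabilin-1 and stabilin-2. Several of these molecules are not restricted to endothelium, since PECAM-1 is also found on platelets and leukocytes, stabilin-1 on macrophages, and CD34 on progenitor and stromal cells. In bulk RNA, fewer cells of a type and less RNA per cell cannot be told apart.

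Of the 10 genes, *Pecam1*, *Tek* and *Stab1* were higher in NOD.B10 spleens, by 1.502-fold, 1.48-fold and 1.57-fold. With an adjusted p under 0.05 over all tested genes as the threshold, none was lower in the quasi-likelihood test of edgeR, or in DESeq2 or limma-voom, and 1 (*Cd34*) was lower at an unadjusted p under 0.05. Over all 15330 tested genes, 17.3% were called at this threshold, 9.11% higher and 8.22% lower in NOD.B10, so a count of 3 among 10 is read against that share. The median log2 fold change of the 10 genes was 0.18, and that of all tested genes was 0.0006. *Cdh5*, *Kdr*, *Stab2* and *Eng*, by contrast, had log2 fold changes between -0.08 and 0.06. The libraries of the strains did not overlap for 5 of the genes (the 3 called, *Flt4* and *Cd34*), where 38.0% of all tested genes showed such a separation.

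**Figure D1:**
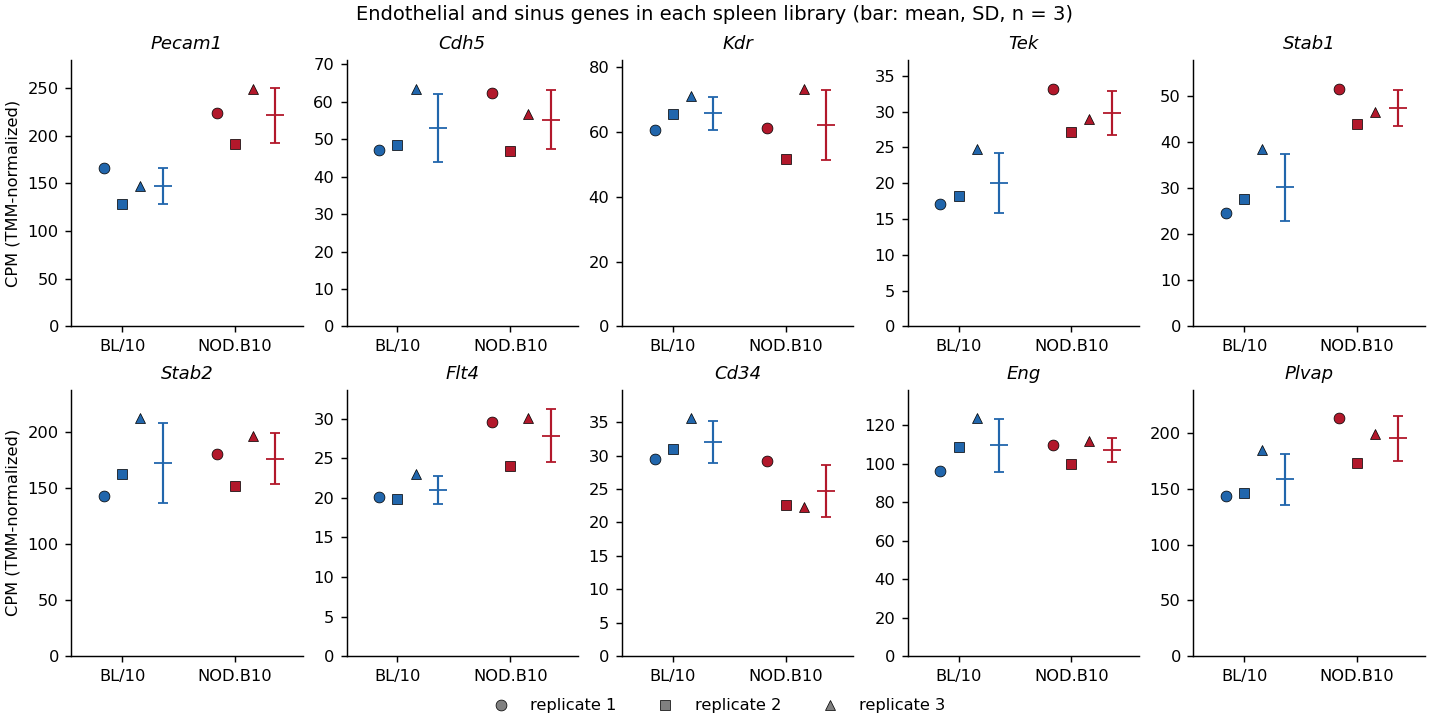
TMM-normalized CPM (vertical axes, from 0) of the 10 genes in each library of BL/10 (blue) and NOD.B10 (red), with symbols for the replicates and bars for the mean and SD of 3 libraries. The 3 NOD.B10 libraries lie above the 3 BL/10 libraries for *Pecam1*, *Tek*, *Stab1* and *Flt4* and below them for *Cd34*, and the strains overlap for the other 5 genes.

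The levels of the genes were compared per exon length, as RPKM (CPM divided by the summed exon length in kilobases). *Plvap*, which encodes the protein of the diaphragms of fenestrated endothelium, had the highest level in both strains, with 97.0 ± 10.0 RPKM (SD, n = 3) in NOD.B10 and 78.7 ± 11.4 RPKM in BL/10. It made up 44.6% and 42.8% of the summed RPKM of the 10 genes. In NOD.B10 the order then ran through *Pecam1* (35.5 RPKM), *Eng* (26.5), *Stab2* (20.1), *Cdh5* (13.9), *Kdr* (6.87), *Tek* (6.32), *Stab1* (4.61), *Flt4* (3.39) and *Cd34* (3.38 RPKM). Among neighbors in this order, the ranges of 3 libraries overlapped only for *Kdr* and *Tek* and for *Flt4* and *Cd34*.

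In BL/10 the order of the first genes was *Plvap*, *Eng* (27.1 RPKM), *Pecam1* (23.7), *Stab2* (19.7), *Cdh5* (13.3) and *Kdr* (7.27), followed by *Cd34* (4.39), *Tek* (4.26), *Stab1* (2.94) and *Flt4* (2.56 RPKM). Here the ranges overlapped for *Eng* and *Pecam1*, for *Pecam1* and *Stab2*, and for each pair of neighbors from *Cd34* to *Flt4*. In both strains every library had a higher RPKM of *Stab2* than of its paralog *Stab1*.

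**Figure D2:**
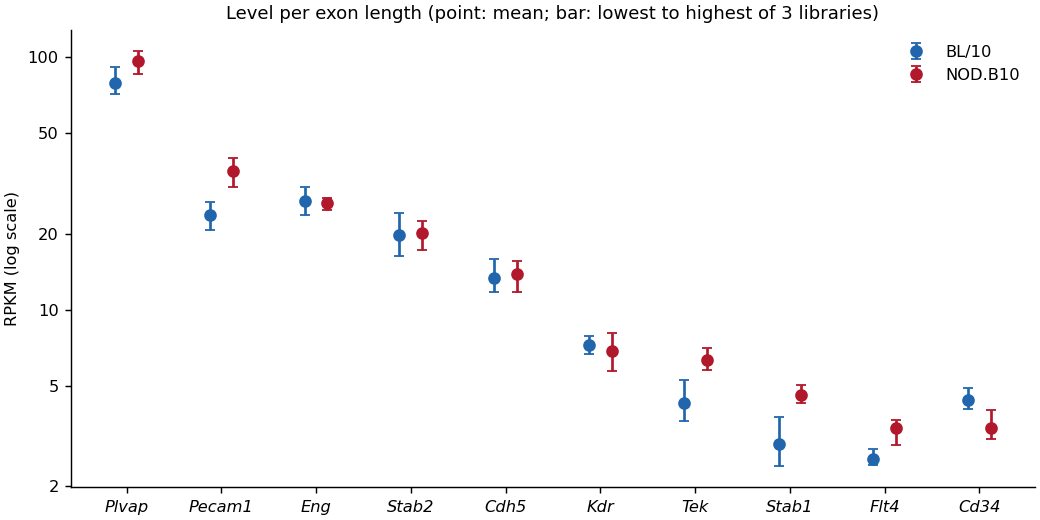
RPKM (vertical axis, log scale) of the 10 genes, ordered by their level in NOD.B10, in BL/10 (blue) and NOD.B10 (red). Points are means and bars run from the lowest to the highest of 3 libraries. *Plvap* is highest in both strains, and *Cd34* is last in NOD.B10 but lies above *Tek*, *Stab1* and *Flt4* in BL/10.

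Among the adhesion molecules of endothelial junctions, *Pecam1* (ENSMUSG00000020717, chromosome 11 from 106654217 to 106750628 of GRCm38) was higher in NOD.B10. Its normalized counts were 223, 191 and 249 CPM in NOD.B10 (replicates 1, 2 and 3) and 166, 128 and 147 CPM in BL/10. The lowest NOD.B10 library lay above the highest BL/10 library. On the log2 scale the difference was 0.59 (0.14 standard error, SE, edgeR adjusted p = 0.0262). This call was lost without NOD.B10 replicate 1 (adjusted p = 0.0924 in edgeR), NOD.B10 replicate 3 (0.0887), BL/10 replicate 2 (0.0740) or BL/10 replicate 3 (0.0754), with log2 fold changes of 0.49 to 0.68 across the 6 fits that left out a library. It was also lost with age as a covariate (log2 fold change 0.41, adjusted p = 0.260 in edgeR), where 1 of the 10 genes and 6.15% of all tested genes were called.

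Leukocyte and platelet markers moved between the same libraries, and their called counts are read against the 17.3% of all tested genes called. Of 10 T cell genes, 8 were higher in NOD.B10 and none lower, with summed CPM of 796 to 1053 in NOD.B10 and 392 to 510 in BL/10. All 12 neutrophil genes were lower, with summed CPM of 2263 to 2573 in NOD.B10 and 6358 to 13414 in BL/10. Of 12 platelet and megakaryocyte genes, 3 were lower and none higher, and their summed CPM overlapped (793 to 1165 in NOD.B10 and 1023 to 1845 in BL/10). Of 10 B cell genes, none was called, and their summed CPM overlapped (4156 to 5398 in NOD.B10 and 3122 to 5531 in BL/10). As for *Pecam1*, BL/10 replicate 1 was the highest of its strain. Without that library, 7 B cell genes were called higher and none lower, where 26.3% of all tested genes were called. No marker of these lists was at 0, and their part in the *Pecam1* result was not tested.

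*Cdh5* (ENSMUSG00000031871, chromosome 8 from 104101625 to 104144502) encodes VE-cadherin, the defining cadherin of endothelial junctions. It had 62.3, 46.7 and 56.6 CPM in NOD.B10 and 47.0, 48.5 and 63.5 CPM in BL/10. The lowest and the highest library of the whole set belonged to different strains, and the ranges were nearly the same. Its log2 fold change was 0.06, with a 95% interval of -0.29 to 0.41 (adjusted p = 0.814 in edgeR). Per read of *Cdh5*, 3.58, 4.09 and 4.40 reads of *Pecam1* were counted in NOD.B10 and 3.53, 2.65 and 2.32 in BL/10, a separation that rests on a narrow gap between replicate 1 of both strains.

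*Kdr* (ENSMUSG00000062960, chromosome 5 from 75932827 to 75978458) encodes VEGFR2, the main receptor for VEGF-A on blood vessels. It had 61.1, 51.6 and 73.3 CPM in NOD.B10 and 60.5, 65.6 and 70.9 CPM in BL/10. Its NOD.B10 libraries included both the lowest and the highest value, and the log2 fold change was -0.08 (95% interval -0.40 to 0.23, adjusted p = 0.705 in edgeR).

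*Flt4* (ENSMUSG00000020357, chromosome 11 from 49609263 to 49652739) encodes VEGFR3, the receptor for VEGF-C, which is known from lymphatic endothelium and is also present on sinusoidal endothelium. It had 29.5, 24.0 and 30.1 CPM in NOD.B10 and 20.1, 19.9 and 23.1 CPM in BL/10. The libraries did not overlap, by a gap of about 1 CPM between NOD.B10 replicate 2 and BL/10 replicate 3. Its log2 fold change of 0.41 (SE 0.12) did not pass the threshold (adjusted p = 0.0567 in edgeR). It passed without NOD.B10 replicate 2 (log2 fold change 0.50, adjusted p = 0.0380 in edgeR) and without the hemoglobin and immunoglobulin genes (0.0493). It also passed with a block for replicate number. The settings under which it did not pass gave adjusted p between 0.0518 and 0.207. Within a library, the reads of *Flt4* per read of *Kdr* were 0.483, 0.465 and 0.410 in NOD.B10 and 0.333, 0.304 and 0.326 in BL/10.

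*Tek* (ENSMUSG00000006386, chromosome 4 from 94739289 to 94874976) encodes TIE2, the angiopoietin receptor of endothelial cells. It had 33.2, 27.1 and 29.0 CPM in NOD.B10 and 17.1, 18.2 and 24.8 CPM in BL/10. All NOD.B10 libraries were higher, and BL/10 replicate 3 came closest to them. This amounted to a log2 fold change of 0.57 (SE 0.16, edgeR adjusted p = 0.0457), just inside the threshold. Of the 6 fits without a library, only that without BL/10 replicate 3 kept the call (log2 fold change 0.75, adjusted p = 0.0137 in edgeR). The adjusted p was 0.159, 0.0656 and 0.114 without NOD.B10 replicates 1, 2 and 3, and 0.0754 and 0.141 without BL/10 replicates 1 and 2. It was also over 0.05 with at least 10 counts required in every library (0.0545 in edgeR). With age as a covariate, the log2 fold change of *Tek* was 0.80, but the call was also lost.

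The genes of the stabilins, scavenger receptors of sinusoidal endothelium, are read separately. *Stab1* (ENSMUSG00000042286, chromosome 14 from 31139013 to 31168641) had 51.7, 44.0 and 46.6 CPM in NOD.B10 and 24.7, 27.6 and 38.5 CPM in BL/10. All NOD.B10 libraries were higher, and again BL/10 replicate 3 was the nearest. The difference was 0.65 on the log2 scale (SE 0.17, edgeR adjusted p = 0.0355). With age as a covariate, the log2 fold change was 0.94. The call was kept without BL/10 replicate 1 (adjusted p = 0.0495 in edgeR) or BL/10 replicate 3 (0.00662). It was lost without NOD.B10 replicates 1, 2 or 3 (0.127, 0.0602 and 0.101) or BL/10 replicate 2 (0.117), with log2 fold changes of 0.51 to 0.85 across all 6 fits that left out a library. Of 12 macrophage genes, 1 was higher (*Cd163*, log2 fold change 1.70) and 1 lower (*Slc40a1*, log2 fold change -0.62), where 17.3% of all tested genes were called. The summed CPM of the 12 macrophage genes overlapped (3628 to 4719 in NOD.B10 and 3979 to 4744 in BL/10). Their part in the *Stab1* result was not tested.

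*Stab2* (ENSMUSG00000035459, chromosome 10 from 86841198 to 87008025), whose product clears hyaluronan from blood, had 180, 151 and 196 CPM in NOD.B10 and 143, 162 and 212 CPM in BL/10. BL/10 held both the lowest and the highest library. The log2 fold change was 0.03 (95% interval -0.36 to 0.41, adjusted p = 0.917 in edgeR). Within a library, where no scaling enters, the reads of *Stab1* per read of *Stab2* were 0.287, 0.290 and 0.238 in NOD.B10 and 0.173, 0.170 and 0.182 in BL/10. This ratio varied little among the BL/10 libraries (0.175 ± 0.00619, SD, n = 3) and was higher in every NOD.B10 library (0.272 ± 0.0295, SD, n = 3). The pairs of genes set against each other were chosen after their values were seen, so the ratios are descriptions, and with 3 libraries against 3 an exact permutation test cannot give a p below 0.1.

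**Figure D3:**
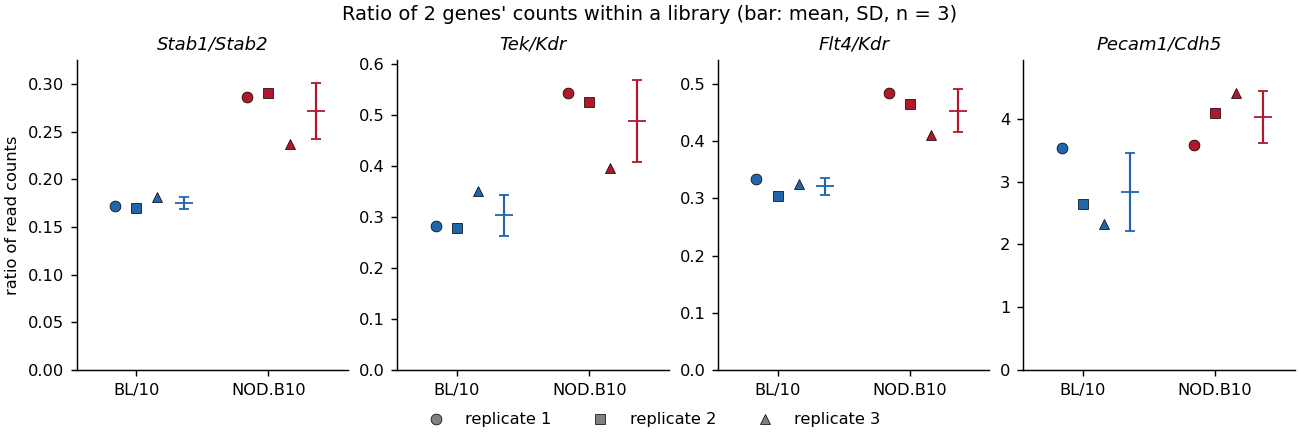
Ratio of the read counts of gene pairs within a library (vertical axes, from 0) in BL/10 (blue) and NOD.B10 (red), with symbols for the replicates and bars for the mean and SD of 3 libraries. *Stab1*/*Stab2* lies at 0.170 to 0.182 in BL/10 and at 0.238 to 0.290 in NOD.B10, and for *Pecam1*/*Cdh5* the nearest libraries are 3.53 and 3.58.

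The sequences before the start sites of these contrasting pairs are shown because *Stab1* and *Tek* were called and *Stab2* and *Kdr* were not. RefSeq promoter windows on GRCm38.p6 were found for 7 of the 10 genes, and the 250 bases before the RefSeq start are printed on the strand of the gene. The windows are chr14:31168642-31168891 (minus strand), chr10:87007943-87008192 (minus), chr4:94739039-94739288 (plus) and chr5:75978456-75978705 (minus). Many sites of ETS factors, a family that includes the endothelial factor ERG, have the core GGAA, or TTCC on the other strand. That core is present in each of the printed windows and is not marked by itself. Capitals mark only a longer form, the letters AGGAAG or their reverse complement CTTCCT.
Stab1: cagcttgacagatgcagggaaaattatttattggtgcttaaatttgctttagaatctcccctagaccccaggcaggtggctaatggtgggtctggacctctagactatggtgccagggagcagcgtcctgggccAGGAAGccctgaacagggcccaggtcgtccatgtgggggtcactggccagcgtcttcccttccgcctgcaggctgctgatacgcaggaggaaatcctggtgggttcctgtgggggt
Stab2: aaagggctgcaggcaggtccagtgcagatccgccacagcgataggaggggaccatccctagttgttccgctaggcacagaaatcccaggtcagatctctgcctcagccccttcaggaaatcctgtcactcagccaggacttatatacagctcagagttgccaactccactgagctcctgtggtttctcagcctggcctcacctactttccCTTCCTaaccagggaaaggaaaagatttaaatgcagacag
Tek: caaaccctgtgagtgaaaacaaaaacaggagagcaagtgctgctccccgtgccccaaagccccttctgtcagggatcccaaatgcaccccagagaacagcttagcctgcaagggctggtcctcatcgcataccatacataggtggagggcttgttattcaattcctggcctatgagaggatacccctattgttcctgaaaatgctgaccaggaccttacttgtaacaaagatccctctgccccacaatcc
Kdr: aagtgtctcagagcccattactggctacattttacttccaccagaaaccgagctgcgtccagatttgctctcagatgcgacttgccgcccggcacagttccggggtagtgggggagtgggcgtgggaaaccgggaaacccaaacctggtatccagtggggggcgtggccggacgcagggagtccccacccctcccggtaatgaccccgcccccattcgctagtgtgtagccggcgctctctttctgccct

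These letters were found once before *Stab1* (bases 116 to 111 before the start), once before *Stab2* (bases 40 to 35) and not in the windows of *Tek*, *Kdr* or *Flt4*. With *Eng* and *Cd34*, 4 of the 7 windows held a match, against 29.5% of 32851 windows of this length over all genes. The GATA-type letters AGATAA or TTATCT were in none of the 7 windows and in 10.0% of all windows. No window was found for *Pecam1*, *Cdh5* and *Plvap*. RefSeq starts can differ from the ends of the genes as counted. Part of the *Stab2* window, with its marked letters, lies inside the counted gene, which reaches 87008025. The *Flt4* window (chr11:49609429-49609678) lies wholly inside the counted gene, which starts at 49609263. Of the called genes, *Stab1* held an ETS-type match and *Tek* did not, too few genes to show whether matches separate called genes from others. The window of *Kdr* held 16 CG dinucleotides, as did that of *Flt4*, and those of *Stab1*, *Stab2* and *Tek* held 5, 3 and 2, where the median of all windows was 6.

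*Eng* (ENSMUSG00000026814, chromosome 2 from 32646595 to 32682669) encodes endoglin, a co-receptor for BMP and TGF-beta ligands on endothelium. It had 110, 100 and 112 CPM in NOD.B10 and 96.2, 109 and 124 CPM in BL/10. The BL/10 range enclosed the NOD.B10 range. Its log2 fold change was -0.03, with the narrowest interval among the 10 genes (-0.29 to 0.23, adjusted p = 0.867 in edgeR).

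*Plvap* (ENSMUSG00000034845, chromosome 8 from 71497754 to 71511769) had 213, 174 and 200 CPM in NOD.B10 and 144, 147 and 185 CPM in BL/10. BL/10 replicate 3 lay above NOD.B10 replicate 2, and the other libraries were apart. The log2 fold change of 0.30 (SE 0.13) did not pass the threshold (adjusted p = 0.154 in edgeR), and it did not pass under any of the 17 alternative settings tried (adjusted p from 0.0651 to 0.392).

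*Cd34* (ENSMUSG00000016494, chromosome 1 from 194938819 to 194961279) encodes a sialomucin of vascular endothelium, progenitor and stromal cells, and had the largest negative value of the 10 genes. It had 29.1, 22.5 and 22.4 CPM in NOD.B10 and 29.5, 31.0 and 35.6 CPM in BL/10. The strains were separated only by the gap between 29.1 and 29.5 CPM. The log2 fold change was -0.38 (SE 0.13, 95% interval -0.69 to -0.06), but it did not pass the adjusted threshold (adjusted p = 0.0925 in edgeR) or any alternative setting (0.0595 to 0.516). Of 10 stem and progenitor genes, 2 were higher and 2 lower in NOD.B10, where 17.3% of all tested genes were called. The summed CPM of these 10 genes overlapped (386 to 444 in NOD.B10 and 439 to 554 in BL/10). Their part in the values of *Cd34* was not tested.

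**Figure D4:**
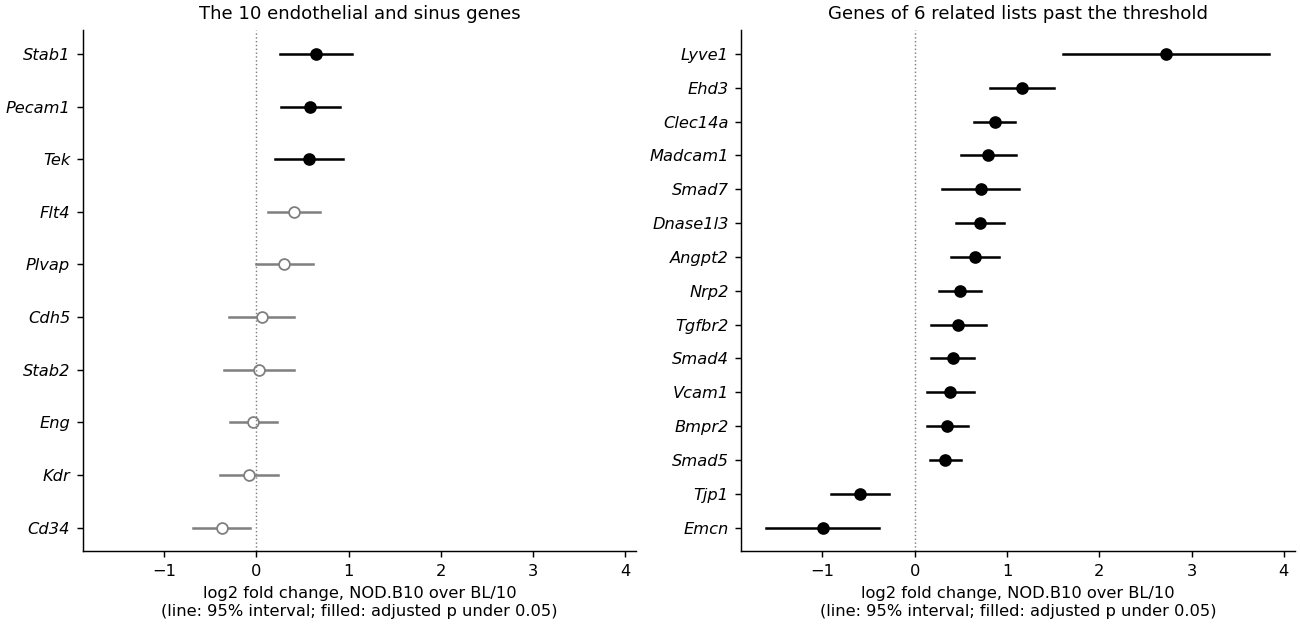
Log2 fold change of NOD.B10 over BL/10 (horizontal axes) with its 95% interval for the 10 genes (left) and for the 15 genes of 6 related lists with an adjusted p under 0.05 in edgeR (right), each ordered by value. Filled points passed the threshold. *Stab1*, *Pecam1* and *Tek* lie at 0.57 to 0.65, *Cdh5*, *Stab2*, *Eng* and *Kdr* lie near 0, and *Lyve1* has the largest value at 2.73.

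The genes also differed in how they varied among mice. NOD.B10 replicate 2 had the lowest value of its strain for 9 of the 10 genes, and BL/10 replicate 3 had the highest value of its strain for 9 of 10. BL/10 replicate 1 was lowest in its strain for 8 of 10, but highest for *Pecam1*. The largest counting error of a library, 6.06% for *Tek*, was below the smallest spread of the called genes within a strain (8.26% for *Stab1* in NOD.B10). It was above the smallest spread among all 10 genes (5.88% for *Eng* in NOD.B10). Over the 6 libraries, log2 CPM of *Tek* and *Stab1* rose and fell almost in parallel (Pearson r = 0.996). The counts of *Tek* per count of *Stab1* differed by no more than 1.124 times between any libraries. *Plvap* and *Flt4* followed them (r of 0.93 to 0.97 with *Tek*, and of 0.92 to 0.95 with *Stab1*). *Stab2* ran closest to *Eng* (r = 0.953) and *Cdh5* (r = 0.896), and *Kdr* had r = 0.0026 with *Tek*. *Pecam1* and *Cd34* had the lowest correlation of any pair (r = -0.707). These correlations are descriptions over 6 libraries that share their strain groups and tissue composition.

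Counts of called genes in the related lists are read against the 17.3% of all tested genes called (9.11% higher, 8.22% lower in NOD.B10). Of 28 other endothelial genes, 27 were tested. Among them, *Clec14a* was higher and *Emcn* lower, and 25 were not called, with a median log2 fold change of 0.10. *Clec14a*, a C-type lectin of vessel walls, had 34.2, 29.4 and 30.9 CPM in NOD.B10 and 17.8, 16.9 and 17.0 CPM in BL/10. Its libraries were far apart, and its log2 fold change of 0.87 (SE 0.10, edgeR adjusted p = 0.00118) passed the threshold under all 17 alternative settings. *Emcn*, endomucin of venous and capillary endothelium, was read at 15 to 30 counts in NOD.B10 and 41 to 53 counts in BL/10 (log2 fold change -0.997, SE 0.26, edgeR adjusted p = 0.0380), and only 1 of the 6 fits without a library kept this call. The endothelial transcription factor gene *Erg* (log2 fold change -0.11, adjusted p = 0.554 in edgeR) and the tight junction gene *Cldn5* (-0.12, adjusted p = 0.669) were not called. The count of called genes was 1 with age as a covariate, 1 when NOD.B10 replicate 1 or 3 or BL/10 replicate 2 was left out, and 4 without BL/10 replicate 1. Scaled to the geometric mean of these genes instead of to all genes, *Tek* (log2 fold change 0.52, adjusted p = 0.0371 in edgeR) and *Stab1* (0.60, adjusted p = 0.0224) remained called, and *Pecam1* (0.52, adjusted p = 0.0711) did not.

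Among 17 genes of sinusoidal and lymphatic endothelium, 15 were tested, 4 were higher in NOD.B10 and none lower, with a median log2 fold change of 0.29. *Lyve1*, a hyaluronan receptor of lymphatic and sinusoidal endothelium and of some macrophages, had 30.4, 23.2 and 22.2 CPM in NOD.B10 and 1.90, 1.88 and 7.56 CPM in BL/10. Every NOD.B10 library was above every BL/10 library, and BL/10 replicate 3 stood apart from the other BL/10 libraries. Its log2 fold change of 2.73 (SE 0.48, edgeR adjusted p = 0.00866) was 3.73 without BL/10 replicate 3. *Ehd3*, an endocytic protein gene known from glomerular and sinusoidal endothelium, had 84.8 ± 9.09 CPM in the NOD.B10 libraries (SD, n = 3) and 37.8 ± 6.81 CPM in BL/10 (log2 fold change 1.16, edgeR adjusted p = 0.00214). *Madcam1*, the addressin of marginal sinus endothelium, had 25.1 ± 0.795 CPM (SD, n = 3) and 14.4 ± 2.22 CPM (log2 fold change 0.80, edgeR adjusted p = 0.00566). *Dnase1l3*, a secreted nuclease also made by macrophages and dendritic cells, had 210 ± 25.0 CPM (SD, n = 3) and 129 ± 7.21 CPM (log2 fold change 0.71, edgeR adjusted p = 0.00588). All 4 were called in each of the 6 fits without a library, but *Dnase1l3* and *Madcam1* were not called with age as a covariate (adjusted p = 0.0683 and 0.0677 in edgeR). The lymphatic genes *Prox1* (log2 fold change 0.42, adjusted p = 0.0657 in edgeR) and *Pdpn* (-0.92, adjusted p = 0.1601) were not called. *Gata4* and *Ccl21a* were too low to be tested, and *Ccl21a* has near-identical copies, so its reads could be lost.

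Of the 12 genes of VEGF and angiopoietin signaling outside the 10 genes, 2 were higher and none lower, with a median of -0.04. *Angpt2*, the ligand of TIE2 that is released by endothelial cells, had 14.4, 13.3 and 15.8 CPM in NOD.B10 and 9.45, 8.99 and 9.26 CPM in BL/10. The strains were clearly apart, with a log2 fold change of 0.65 (SE 0.11, edgeR adjusted p = 0.00823). Another angiopoietin gene, *Angpt1*, had a log2 fold change of -0.21 and was not called (adjusted p = 0.537 in edgeR), and neither was *Tie1*, the paralog of *Tek* (0.21, adjusted p = 0.287). *Nrp2*, a co-receptor for VEGF-C, had 53.5, 46.4 and 57.03 CPM in NOD.B10 and 38.5, 35.2 and 38.0 CPM in BL/10 (log2 fold change 0.49, SE 0.10, edgeR adjusted p = 0.0153). *Vegfa*, the ligand of VEGFR2, was at 31.5 ± 2.72 CPM in the NOD.B10 libraries (SD, n = 3) and 40.0 ± 5.15 CPM in BL/10, and its log2 fold change of -0.34 did not pass (adjusted p = 0.0883 in edgeR). The count of called genes fell to 1 without NOD.B10 replicate 1 or 3, and was 0 with age as a covariate.

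Of 22 genes of the TGF-beta and BMP pathways, in which endoglin acts, 21 were tested, 5 were higher and none lower, with a median of -0.05. The receptor genes *Tgfbr2* (log2 fold change 0.47, adjusted p = 0.0414 in edgeR) and *Bmpr2* (0.35, adjusted p = 0.0424), the signal transducers *Smad4* (0.41, adjusted p = 0.0276) and *Smad5* (0.33, adjusted p = 0.0210) and the inhibitor *Smad7* (0.72, adjusted p = 0.0320) were called. These genes are also expressed by lymphocytes and other spleen cells. The T cell markers given above were mostly higher and the neutrophil markers lower, and their part in these calls was not tested. *Acvrl1*, the endothelial receptor that works with endoglin, had a log2 fold change of -0.05 (adjusted p = 0.783 in edgeR). With age as a covariate, 0 genes of this list were called. The calls also depended on single libraries, since 5 genes were called without BL/10 replicate 1, 2 without NOD.B10 replicate 2, 1 without BL/10 replicate 2 and 0 without NOD.B10 replicate 1, NOD.B10 replicate 3 or BL/10 replicate 3.

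Of 12 Notch and ephrin genes, 11 had a positive log2 fold change, with a median of 0.24, and none was called by edgeR. Over all 15330 tested genes, 7678 had a positive log2 fold change. At an unadjusted p under 0.05, 3 of the 12 passed, but the share of all tested genes under that cutoff was not computed. DESeq2 called 1 of the 12, against 17.4% of all genes it tested, and limma-voom called 2. The Notch ligand gene *Jag1* was nearest to the threshold (log2 fold change 0.49, adjusted p = 0.0553 in edgeR). Of 11 genes of junction partners, 10 were tested, and *Vcam1*, an adhesion molecule of endothelium and red pulp macrophages, was higher (log2 fold change 0.39, adjusted p = 0.0492 in edgeR). *Tjp1*, which encodes the scaffold protein ZO-1, was lower (-0.60, adjusted p = 0.0234 in edgeR), with 33.6 to 37.3 CPM in NOD.B10 and 42.3 to 58.9 CPM in BL/10. *Vcam1* was called in none of the 6 fits without a library (lowest adjusted p = 0.0594 in edgeR), and *Tjp1* was called only in the fit without BL/10 replicate 1 (0.00212). Neither was called with age as a covariate (adjusted p = 0.163 and 0.253 in edgeR).

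**Figure D5:**
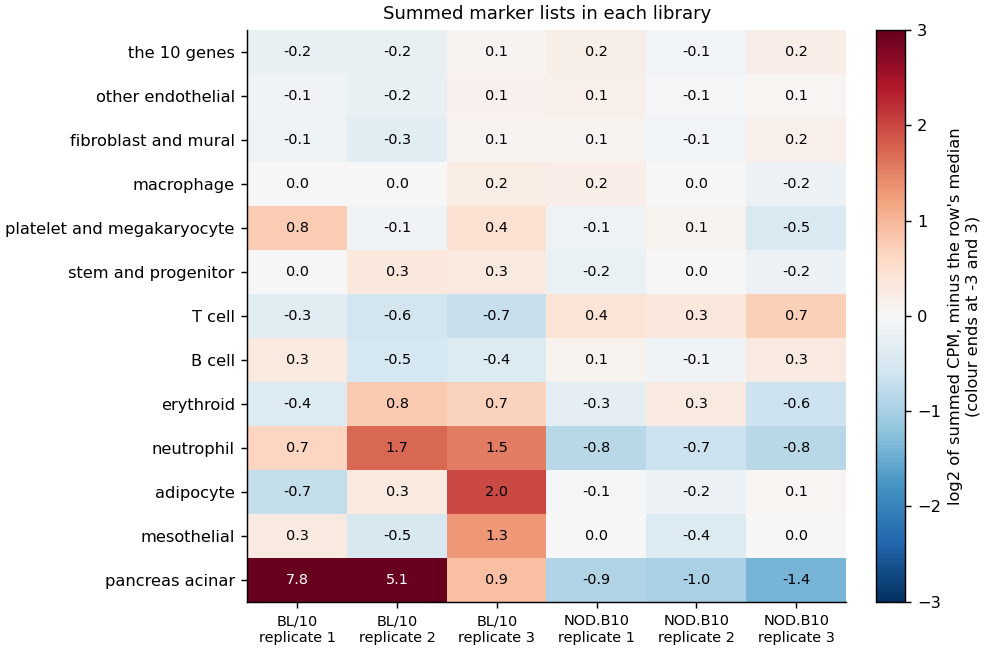
Log2 of the summed CPM of each marker list (rows) in each library (columns), with the median of the row subtracted, and colours that end at -3 and 3. The rows of the 10 genes, the other endothelial genes and the macrophage genes stay within 0.23 of their median. Every other row goes further, and the pancreas acinar, adipocyte and neutrophil rows go furthest.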

How the data were processed

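Whole-spleen RNA from 3 NOD.B10 and 3 BL/10 females was sequenced as single-end reads (TruSeq, HiSeq). The authors deposited unnormalized counts of reads for each gene, made with featureCounts 1.5.1 on Ensembl 84 exons of GRCm38 according to the table's header, and the exon lengths in the same table were used for RPKM. The methods of the study and the submitters' processing notes name different aligners (Tophat2, and HISAT2 2.0.5), so the aligner is uncertain. The counting command sets no strand, so reads of a gene and of an antisense partner cannot be told apart. *Cd34*, *Eng*, *Stab1* and *Stab2* share 2.03%, 1.51%, 1.06% and 1.61% of their exon bases with a gene on the other strand.

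Libraries were grouped by sample description. Gene symbols were found for 47224 of 47729 identifiers in GENCODE names. Counts were filtered with filterByExpr, scaled by TMM and tested with edgeR 4.0.16 (glmQLFit and glmQLFTest, R 4.3.3) with strain as the only term, and p-values were adjusted by the Benjamini-Hochberg method over 15330 genes. Each standard error is the size of the log2 fold change divided by the square root of F, and 95% intervals from the t distribution. On simulated counts for 15148 genes of this comparison, 193 of 200 changed genes were called, with 12 unchanged genes. The share called at log2 fold changes as small as those of the 10 genes was not tested. Total counts were 15662712 to 18298451, and with TMM-scaled library sizes of 14912390 to 18412737 a count of 3 was 0.163 to 0.201 CPM, which covers counting error only. The lowest count of any of the 10 genes was 272.

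Alternatives were DESeq2 1.42.0, limma-voom with quality weights (limma 3.58.1), other scaling factors and filters, a replicate block, age as a covariate and leaving out each library. The text names all 10 genes, up to 5 called genes of each related list with the largest fold change, and the 5 genes most like the mean of the 10. Uncalled genes of the lists, *Cd163*, *Slc40a1* and the ratios were chosen after their values were seen. The genes and lists were chosen with earlier results of these data known. Promoter sequences were read from RefSeq windows on GRCm38.p6.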

Additional observations from a re-analysis of the deposited data

How the results depend on the processing

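The number of the 10 genes called was 3, and it was 1 with age as a covariate, 0 at an adjusted p under 0.01, and 0 to 2 when a library was left out (0 without NOD.B10 replicate 1, NOD.B10 replicate 3 or BL/10 replicate 2). The other settings gave 2 to 4. Over all genes, 2656 were called, 943 with age as a covariate, 1035 at an adjusted p under 0.01, and 1269 to 4107 when a library was left out (4107 without BL/10 replicate 1). The cause was not tested. With the replicate block, 3 of the 10 genes and 2889 of all genes were called, where *Flt4* passed (adjusted p = 0.0453 in edgeR) and *Tek* did not (0.0523). Same-numbered libraries had correlations of 0.0316, 0.172 and -0.0837, and not every library correlated best with its own number, so the numbers are not taken as pairs. Genes with values near 0 changed sign. The log2 fold change of *Cdh5* was -0.0355 to 0.20 across the fits without a library (-0.03 without BL/10 replicate 1 and -0.01 without BL/10 replicate 2). That of *Kdr* was -0.22 to 0.0350 and 0.0356 with age as a covariate. That of *Stab2* was -0.10 to 0.20 (-0.06 and -0.02 without NOD.B10 replicate 3 and BL/10 replicate 2) and -0.0250 when scaled to other endothelial genes. That of *Eng* was -0.13 to 0.0580 (0.02 without NOD.B10 replicate 2) and 0.16 with age as a covariate. No direction of the called genes changed under any setting. Among the related lists, the VEGF and angiopoietin and the TGF-beta and BMP lists each had 1 called gene when scaled to other endothelial genes, where the median of all genes moved by -0.07. Whether depth limited the 10 genes was not tested. Their lowest count was 272, and *Emcn*, *Pdpn* and *Lyve1* in BL/10 rest on few reads.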

Other observations

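The cells that surround vessels were read in a list of 12 fibroblast and mural genes, 3 of them called higher and 2 called lower in NOD.B10 (median log2 fold change 0.06). Over all tested genes, 17.3% were called. The contractile genes *Tagln* (161 ± 4.57 CPM in NOD.B10 and 103 ± 15.4 CPM in BL/10, SD, n = 3) and *Acta2* (108 ± 7.65 and 77.8 ± 13.0 CPM) had log2 fold changes of 0.64 and 0.47 (adjusted p = 0.0102 and 0.0439 in edgeR). *Pdgfra*, a receptor gene of fibroblasts, had 61.6 ± 7.91 and 36.6 ± 7.71 CPM (log2 fold change 0.75, adjusted p = 0.0193 in edgeR). The pericyte gene *Rgs5* was lower, with 9.35 ± 1.603 and 14.6 ± 0.463 CPM (log2 fold change -0.64, adjusted p = 0.0208 in edgeR), as was *Lum*, which encodes the matrix proteoglycan lumican, with 1.53 ± 0.256 and 4.94 ± 0.493 CPM (-1.68, adjusted p = 0.00173). The summed CPM of the list overlapped between the strains. These genes were named after their values were seen.

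The genes whose log2 CPM over the 6 libraries ran closest to the mean of the 10 endothelial genes were *Cacna1b* (Pearson r = 0.994), the endothelial adhesion receptor gene *Adgrf5* (0.993), *Frzb* (0.990), *Rtl8c* (0.989) and *Akr7a5* (0.988), among 15320 genes compared. None of them was called between the strains in edgeR (adjusted p of 0.148 to 0.352). With 6 libraries and so many genes, high values of r are frequent, and they are given as a description only.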
